A study of Rattus norvegicus with 3 samples.

Results

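Skeletal muscle genes were followed through single-cell RNA of the rat jaw joint. The set is 7 genes of the fast muscle sarcomere and its energy supply, Tnni2, Tnnt3, Tnnc2, Mylpf, Acta1, Ckm and Myl1, taken by name out of 20896 gene names in the tables. They were selected on measured values, because the level of Tnni2 in the chondrocyte-marker clusters differed between the libraries, so the values of Tnni2 are a description and support nothing further. The question was whether Tnni2 moves with the other muscle genes or alone.

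Condylar cartilage and subchondral bone of SD rats, wild type in genotype, were sequenced as 3 libraries, each a pool of 16 condyles from 8 rats. In the sham library the temporomandibular joint had been injected with Vector AAV, an adeno-associated virus without the microRNA, and no crossbite was made. UAC is unilateral anterior crossbite, a dental appliance model that overloads the joint, here combined with Vector AAV. In the UAC + miR-330 library, called the miR-330 library, the joint with UAC was injected with miR-330 AAV, which carries microRNA 330. Rats of the AAV groups were kept for 8 weeks, their age is not given in the sources used here, and the rats of a pool cannot be told apart. The depth was 77668015 UMIs (unique molecular identifiers, which count captured RNA molecules) for sham, 92629658 for UAC and 97255383 for miR-330. CPM stands for counts of a gene among 1000000 UMIs of a cluster, and levels come with exact Poisson 95% intervals that cover counting error only. There is 1 library per condition, so no difference between libraries has a replicate check and no test was made.

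Troponin is the calcium switch of striated muscle: troponin C binds calcium, troponin I holds contraction off at rest, and troponin T anchors the complex to tropomyosin on the actin filament. Each subunit has separate genes for fast skeletal, slow skeletal and cardiac muscle, and in a fast fibre Tnni2, Tnnt3 and Tnnc2 are expressed together with the myosin light chains Mylpf and Myl1, skeletal alpha-actin (Acta1) and muscle creatine kinase (Ckm). Fast troponin I is also known as a protein found in cartilage that inhibits the growth of blood vessels.

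The clusters compared were cluster 12 (sham), cluster 16 (UAC) and cluster 17 (miR-330), which are called the chondrocyte-marker clusters. In each of the 3 libraries the summed level of 15 chondrocyte markers was highest in this cluster, at 62970, 50048 and 64675 CPM, against 2522, 240 and 2088 CPM in the cluster next in order. Of the 15 markers, 14 had their highest level there in every library, and the exception in each was Matn1, with 2, 0 and 0 UMIs. The cluster also held osteoblast genes, with Col1a1 at 57395, 46960 and 49062 CPM. Whether these came from a mixture of skeletal cells or from the same cells cannot be told from cluster sums. The chondrocyte-marker cluster held 11.6%, 6.46% and 6.05% of the UMIs of the sham, UAC and miR-330 libraries.

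The label of skeletal muscle is not borne out by the genes that define muscle cells. Myod1, Myf5, Myh1, Myh4, Ttn and Atp2a1, which define muscle fibres and their precursors, were listed in none of the 3 tables. A table lists only genes with at least 1 UMI, so such a gene either had 0 UMIs or was missing from the annotation, which the tables do not separate. Myog, the transcription factor of differentiating myoblasts, and Pax7, of satellite cells, had at most 1 UMI in any library. Being unlisted says little, since Cd79a of B cells was unlisted too while Cd79b had 45069 UMIs in the sham library. Other muscle genes were counted over all clusters, as Mybpc2 with 1149, 1827 and 1503 UMIs and Myh3 with 26, 18 and 35. Mybpc2 was highest in clusters high in B cell markers, at 47.5 CPM in sham cluster 2, 78.5 in UAC cluster 6 and 50.4 in miR-330 cluster 3. Those clusters had 19576, 17975 and 20510 CPM of B cell markers. In the chondrocyte-marker clusters Mybpc2 had 5, 4 and 6 UMIs and Myh3 had 0. Muscle cells are thus not seen through the defining genes above, but their absence is not shown. The set is treated as Tnni2 and 6 further genes.

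Tnni2 (ENSRNOG00000020276), fast skeletal troponin I, had 983 UMIs in the chondrocyte-marker cluster of the sham library, 109 CPM (102 to 116). In the UAC library it had 103 UMIs, 17.2 CPM (14.1 to 20.9), and in the miR-330 library 435 UMIs, 73.9 CPM (67.1 to 81.2). The sham library was highest, the UAC library lowest, and none of the 3 intervals overlapped. From sham to UAC the log2 ratio was -2.66 (exact conditional 95% interval -2.97 to -2.37), a 6.30-fold lower level. For miR-330 to UAC the log2 ratio was 2.10 (1.79 to 2.43), a 4.28-fold higher level, and for miR-330 to sham it was -0.56 (-0.73 to -0.40). The first and the second ratio share the UAC library, so a low value in that library alone enters both, in opposite directions.

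**Figure D1:**
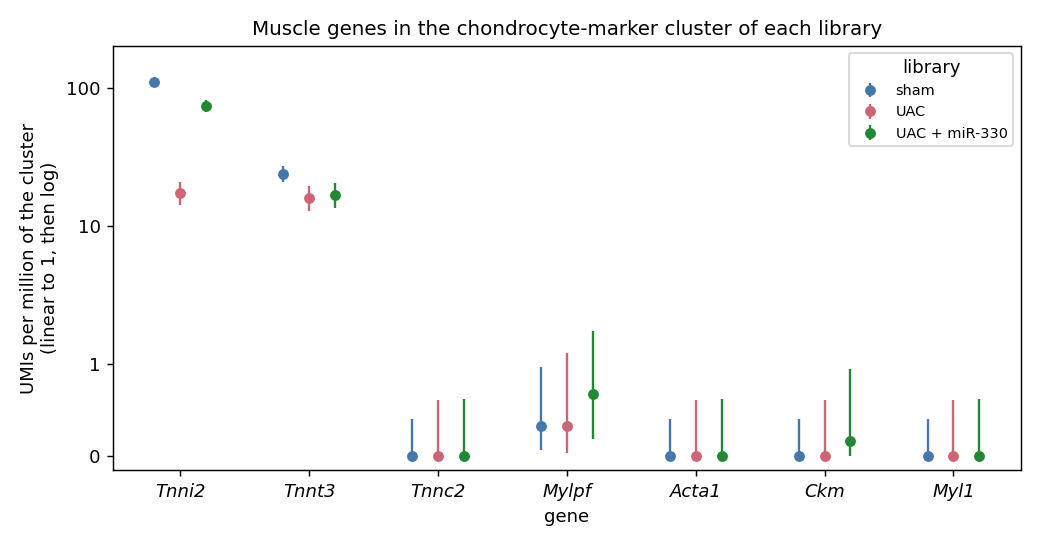
Level of the 7 muscle genes in the chondrocyte-marker cluster of the sham, UAC and miR-330 libraries, in CPM, on an axis that is linear up to 1 and logarithmic above. Points are levels and bars exact Poisson 95% intervals of the counts. Tnni2 lies at 109, 17.2 and 73.9, Tnnt3 at 23.8, 15.9 and 16.7, and the other 5 genes below 1.

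Tnnt3 (ENSRNOG00000020332), fast troponin T, had 215, 95 and 98 UMIs in the chondrocyte-marker clusters of the sham, UAC and miR-330 libraries. Its level was 23.8 CPM (20.8 to 27.2) for sham, 15.9 (12.9 to 19.4) for UAC and 16.7 (13.5 to 20.3) for miR-330. The sham library was highest, with an interval apart from both others, and the intervals of the UAC and miR-330 libraries overlapped. From sham to UAC the log2 ratio was -0.58 (-0.95 to -0.23), and that of miR-330 to UAC was 0.07 (-0.35 to 0.49). On CPM Tnnt3 was thus lower for UAC than for sham, by less than 2-fold. That ratio was -0.25 when scaled to the chondrocyte markers and turned to 0.08 with the UMIs of Ihh and Pth1r as the scale, chosen after seeing the data. The latter scale adds 0.66 to the log2 ratio of every gene in this step. The direction for Tnnt3 thus depends on the scale chosen, and the turn says nothing on Tnnt3 alone. No CPM difference between the UAC and miR-330 libraries was detectable at this depth.

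Tnnc2 (ENSRNOG00000015155), the calcium-binding subunit that completes the fast troponin complex, had 0 UMIs in all 3 chondrocyte-marker clusters. The limit of 3 counts set for a count of 0 is 0.333, 0.502 and 0.51 CPM, and the exact Poisson upper bounds are 0.409, 0.617 and 0.627. Over all clusters Tnnc2 had 13, 19 and 26 UMIs. Its highest level, 2.62 CPM from 8 UMIs in the sham library, lay in cluster 8, a cluster with 324510 CPM of neutrophil markers. In the 3 chondrocyte-marker clusters the fast subunit T was thus counted beside Tnni2 and the fast subunit C was not detected. Elsewhere all 3 subunits were counted in the same cluster, as in sham cluster 8 with 7 UMIs of Tnni2, 14 of Tnnt3 and 8 of Tnnc2.

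Of the myosin light chains, Mylpf (ENSRNOG00000017645), the regulatory light chain of fast muscle, had 3, 2 and 4 UMIs in the chondrocyte-marker clusters, 0.333 CPM (0.0686 to 0.972), 0.334 (0.0405 to 1.21) and 0.68 (0.185 to 1.74). Over all clusters Mylpf had 226, 212 and 240 UMIs, so only 1.33%, 0.943% and 1.67% of them lay there. It was highest in cluster 3 of the sham library, 6.02 CPM (4.75 to 7.52), and in cluster 5 of the UAC library, 4.91 (3.74 to 6.34), both high in B cell markers and in the proliferation gene Mki67, at 942 and 1000 CPM. In the miR-330 library Mylpf was highest in cluster 3, 5.93 CPM (3.24 to 9.95), which is high in B cell markers but has Mki67 at only 14.8 CPM. That level rests on 14 UMIs, and its interval overlaps that of cluster 16, 5.35 CPM (3.64 to 7.6) from 31 UMIs, where Mki67 is at 2216 CPM. Among 15, 18 and 19 clusters the chondrocyte-marker cluster ranked 15, 17 and 18 for Mylpf. Myl1 (ENSRNOG00000013262), the essential light chain, had 0 UMIs there in all 3 libraries, and 1 and 7 UMIs over all clusters of the sham and UAC libraries.

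Acta1 (ENSRNOG00000017786), among the most abundant messages of muscle fibres, had 1 UMI in all clusters of the UAC library, outside the chondrocyte-marker cluster, and was not listed in the other libraries. Ckm (ENSRNOG00000016837) had 3 UMIs in the miR-330 library, 1 of them in the chondrocyte-marker cluster, and was not listed elsewhere. Of the 7 genes, 5, 6 and 5 were listed for sham, UAC and miR-330. Only Tnni2 and Tnnt3 had at least 20 UMIs in the chondrocyte-marker clusters, and no ratio is given for the other 5. Without Tnni2, the 6 genes together had 24.2, 16.2 and 17.5 CPM in the sham, UAC and miR-330 libraries, nearly all of it Tnnt3.

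A gene was called different between libraries when its ratio was past 2-fold and the Poisson intervals of the levels did not overlap, which describes these libraries and is not a test. From sham to UAC, 0.554% of 11556 genes with at least 20 UMIs in the 2 clusters together were called lower and 3.19% higher, and the median log2 ratio was 0.15. Of the 7 genes Tnni2 was called lower and 0 were called higher. From UAC to miR-330, 1.84% of 11341 such genes were called higher and 2.83% lower, with a median of 0.01. Tnni2 was called higher, and 0 of the 7 were called lower. Since Tnni2 was chosen by these contrasts, nothing is read from its calls. With ratios of the deposited mean counts in place of CPM, the share of higher genes among all called genes was 92.9% in place of 85.2% in the first step and 71.4% in place of 39.4% in the second. Scaled to the chondrocyte markers it was 96% in the first step and 6.39% in the second. With 2 scalings chosen after seeing the data, the hypertrophic list and Ihh with Pth1r, it was 81.8% and 99% in the first and 7.86% and 0.979% in the second. Without neutrophil, mitochondrial, ribosomal protein and haemoglobin genes in the scaling it was 85.4% and 35.5%. Higher genes were thus the larger share in the first step under every scaling, and in the second step which side is larger depends on the scaling.

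Of the 5 other troponins only Tnnc1 had enough UMIs for a ratio. Tnni1, slow skeletal troponin I, had 0, 0 and 1 UMIs in the chondrocyte-marker clusters of the sham, UAC and miR-330 libraries, and Tnni3, the cardiac form, had 0, 3 and 2. Tnnt2, cardiac troponin T, had 0, 1 and 0 UMIs. Each of these 3 genes was at or under 3 UMIs, where no fold is given. Tnnt1, slow troponin T, had 4 UMIs in each of the 3 clusters, although it had 173, 343 and 259 UMIs in the libraries. It was highest in clusters with many neutrophil markers, at 23.4 CPM in sham cluster 10, 33.5 in UAC cluster 12 and 27.5 in miR-330 cluster 9. Tnnc1, the troponin C of slow and cardiac muscle, had 2.99 (1.97 to 4.36), 3.01 (1.78 to 4.76) and 2.04 (1.05 to 3.56) CPM in the chondrocyte-marker clusters, with overlapping intervals. Its highest levels were 283, 307 and 319 CPM, again in clusters with many neutrophil markers, so the troponin genes had their highest levels in different clusters.

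Among genes of the thick and thin filaments, 20 of the 25 on the list were listed in some table, 8 of them with at least 20 UMIs in the 3 chondrocyte-marker clusters together. They include tropomyosins, which non-muscle cells also use: Tpm1 lay at 170, 160 and 187 CPM, Tpm2 at 55.3, 95 and 59.1, and Tpm3 at 136, 165 and 204 in the sham, UAC and miR-330 libraries. Nebulin (Neb), the ruler of the thin filament, lay at 11.9, 8.86 and 18.5 CPM, and its log2 ratio from UAC to miR-330 was 1.06 (0.58 to 1.57). The M-band gene Myom1 had 10, 5 and 24 UMIs, with a log2 ratio of 2.18 (0.87 to 4.03) in the same step. Myl3, a slow and cardiac light chain, was at 1.11, 4.68 and 5.78 CPM and was higher in the UAC than in the sham library, the opposite direction to Tnni2, with a log2 ratio of 2.03 (0.99 to 3.28). Lmod3 (leiomodin 3), which nucleates actin filaments, had 23, 12 and 13 UMIs, and Myom2, a further M-band gene, 8, 6 and 6. In the step from sham to UAC 1 of 6 such genes with enough UMIs was called higher and 0 lower, and in the step to miR-330 2 of 7 were called higher and 0 lower, against 3.19% and then 1.84% of all genes called higher.

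On CPM Z-disc and membrane genes showed no call in either step, for 6 of 6 with enough UMIs. Over all genes 3.19% were called higher and 0.554% lower in the first step, and 1.84% and 2.83% in the second. A list of this size without a call is thus not set apart from other genes. With Ihh and Pth1r as the scale, chosen after seeing the data, Dmd, Fhl1 and Hspb6 were called higher in the first step. Fhl1, a LIM protein, lay at 32.8, 48.3 and 43.0 CPM, lowest in the sham library. Hspb6, a small heat shock protein, lay at 11.9, 17.2 and 12.6, with overlapping sham (9.72 to 14.3) and miR-330 (9.87 to 15.8) intervals. Klhl40, a stabiliser of thin filaments, was at 13.1, 10.0 and 11.6 CPM, and its intervals of the log2 ratio included 0 in both steps. Ldb3, Sgca and Dmd were at or below 4.85 CPM in every library.

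Genes of calcium release, the step that troponin senses, included triadin (Trdn) at 18.5, 18.1 and 30.4 CPM. The junctophilins, which tether the plasma membrane to the calcium store, lay at 8.2, 10.5 and 15.1 CPM for Jph1 and at 13.7, 14.5 and 17.8 for Jph2. The calcium release channel Ryr1 had 6, 5 and 11 UMIs, too few for a ratio. Calsequestrin 2 (Casq2), a calcium buffer, had 37, 12 and 20 UMIs, with log2 ratios of -0.99 (-2.11 to -0.06) from sham to UAC and 0.74 (-0.34 to 1.93) from UAC to miR-330. Casq2 passed the calling rule in neither step. Of the muscle energy genes, Eno3, an enolase, was at 38.4, 52.5 and 38.4 CPM, highest in the UAC library, Pfkm, a phosphofructokinase, was at 27.2, 22.9 and 20.7, and Cox6a2 and Pygm stayed at or below 2.17.

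Of the myogenic regulators only Cdh15, an adhesion molecule of muscle precursors, at 11.4, 11.9 and 12.9 CPM, and Chrna1, an acetylcholine receptor subunit, at 4.99, 2.68 and 2.72, had 20 UMIs or more. Myf6 and Mymk had 0 UMIs in the chondrocyte-marker clusters. Over the 84 genes of the wider muscle lists, other troponins included, 72 were listed and 26 had at least 20 UMIs in the 3 clusters together. From sham to UAC, 1 of 23 with enough UMIs was called higher (Myl3) and 0 lower, against 3.19% and 0.554% of all genes, with a median log2 ratio of 0.08 against 0.15. From UAC to miR-330, 2 of 24 were called higher (Neb and Myom1) and 0 lower, against 1.84% and 2.83% of all genes, with a median of 0.07 against 0.01. Of 23 wider muscle genes with enough UMIs in both steps 8 had their lowest CPM in the UAC library, as Tnni2 had: Casq2, Chrna1, Klhl40, Lmod3, Neb, Pygm, Tpm1 and Trdn. That is 34.8%, against 18.6% of all genes, and when scaled to the chondrocyte markers it is 2 of 23, Casq2 and Neb, against 2.81%. The tally ranks levels without regard to counting error. For Tpm1 the log2 ratio from sham to UAC was -0.08 (-0.2 to 0.03), and Pygm had 10 UMIs in both the UAC and the miR-330 cluster. It thus does not show that these genes share the order of Tnni2. The calls depend on the scaling too. In the second step Neb was not called when scaled to the chondrocyte markers, to the hypertrophic list or to Ihh and Pth1r, at log2 ratios of 0.69, 0.74 and 0.38, and Tpm2 was called lower under all 3. Under the last Myom1 was not called, and Eno3 and Hspb6 were called lower too, both at -1.13. In the first step Tpm2 was called higher when scaled to the chondrocyte markers, at 1.11. Under the scaling to Ihh and Pth1r 7 muscle genes were called higher in that step. The hypertrophic and the Ihh and Pth1r scalings were chosen after seeing the data. No gene of these lists was called lower in the first step and higher in the second, under CPM or any of 5 other scalings. Over all 11216 genes with enough UMIs in both steps 8 had these calls on CPM, Tnni2 among them, which is 0.0713%, so a count of 0 in lists of this size does not set them apart from other genes.

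**Figure D2:**
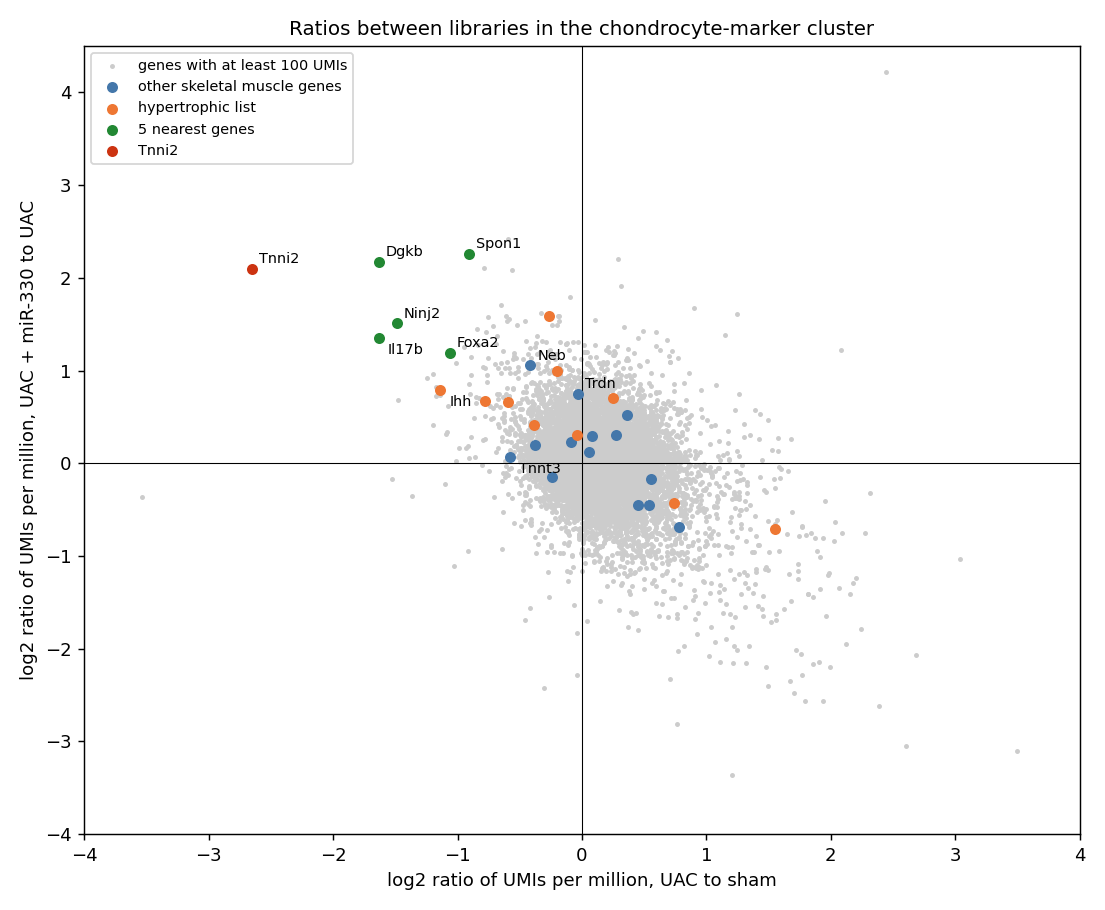
Log2 ratios of CPM in the chondrocyte-marker cluster, UAC to sham on the horizontal axis and miR-330 to UAC on the vertical axis, for genes with at least 100 UMIs in the 3 clusters together. Each point is a gene, 9400 are drawn, and 6 lie outside the axes. Both axes share the UAC library, which tilts the cloud downwards to the right, and Tnni2 lies at -2.66 and 2.10.

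Across the clusters Tnni2 was concentrated in the chondrocyte-marker cluster. That cluster held 91.4% of its UMIs (exact binomial 95% interval 89.5 to 93.0) for sham, 59.9% (52.1 to 67.3) for UAC and 83.0% (79.5 to 86.1) for miR-330. In each library the level there lay above the intervals of all other clusters, 14, 17 and 18 in number. In the sham library the next levels were 4.14 CPM (2.26 to 6.94) in cluster 15, which is high in macrophage markers, 3.87 (1.42 to 8.43) in cluster 14 and 3.26 (2.3 to 4.5) in cluster 13. The interval of cluster 15 overlapped those of 5 lower clusters and lay above those of 8. In the UAC library the next was cluster 11 at 2.69 CPM (1.89 to 3.71), apart from 10 lower clusters, and 6 clusters held 0 UMIs. In the miR-330 library it was cluster 15 at 3.68 (1.59 to 7.25), whose interval overlapped those of 12 lower clusters.

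Outside the chondrocyte-marker cluster Tnni2 had 93, 69 and 89 UMIs, which is 1.35 CPM (1.09 to 1.66), 0.796 (0.62 to 1.01) and 0.974 (0.782 to 1.20) of the UMIs outside. The sham level was apart from the UAC level, and the miR-330 level overlapped both. Tnni2 was also set against Col2a1, the main collagen of cartilage. Inside the cluster there were 4.01, 0.889 and 3.04 Tnni2 UMIs for each 1000 Col2a1 UMIs. Outside there were 22.4 (18.1 to 27.5), 34.3 (26.7 to 43.4) and 19.6 (15.8 to 24.2), counted against 4144, 2012 and 4531 Col2a1 UMIs. There was thus more Tnni2 for each Col2a1 UMI outside than inside in each library, and the source of the UMIs outside was not tested.

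Over all clusters of a library Tnni2 was at 13.9 (13.0 to 14.7), 1.86 (1.59 to 2.16) and 5.39 (4.94 to 5.87) CPM. In these totals fewer cells of a type and less RNA per cell cannot be told apart. Tnnt3 was spread more widely, with 45.4% (40.8 to 50), 23.1% (19.1 to 27.4) and 21.3% (17.6 to 25.3) of its UMIs in the chondrocyte-marker cluster. That cluster was highest in Tnnt3 in all 3 libraries. Its interval lay above those of the other 14 clusters for sham, 16 of 17 for UAC and all 18 for miR-330. Cluster 2, with 12573 and 15198 CPM of B cell markers, came next in the UAC and miR-330 libraries, at 10.2 (7.95 to 12.9) and 10.1 (7.94 to 12.7) CPM. Outside the chondrocyte-marker cluster Tnnt3 was at 3.77 (3.33 to 4.26), 3.66 (3.27 to 4.08) and 3.97 (3.57 to 4.40) CPM, with overlapping intervals.

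**Figure D3:**
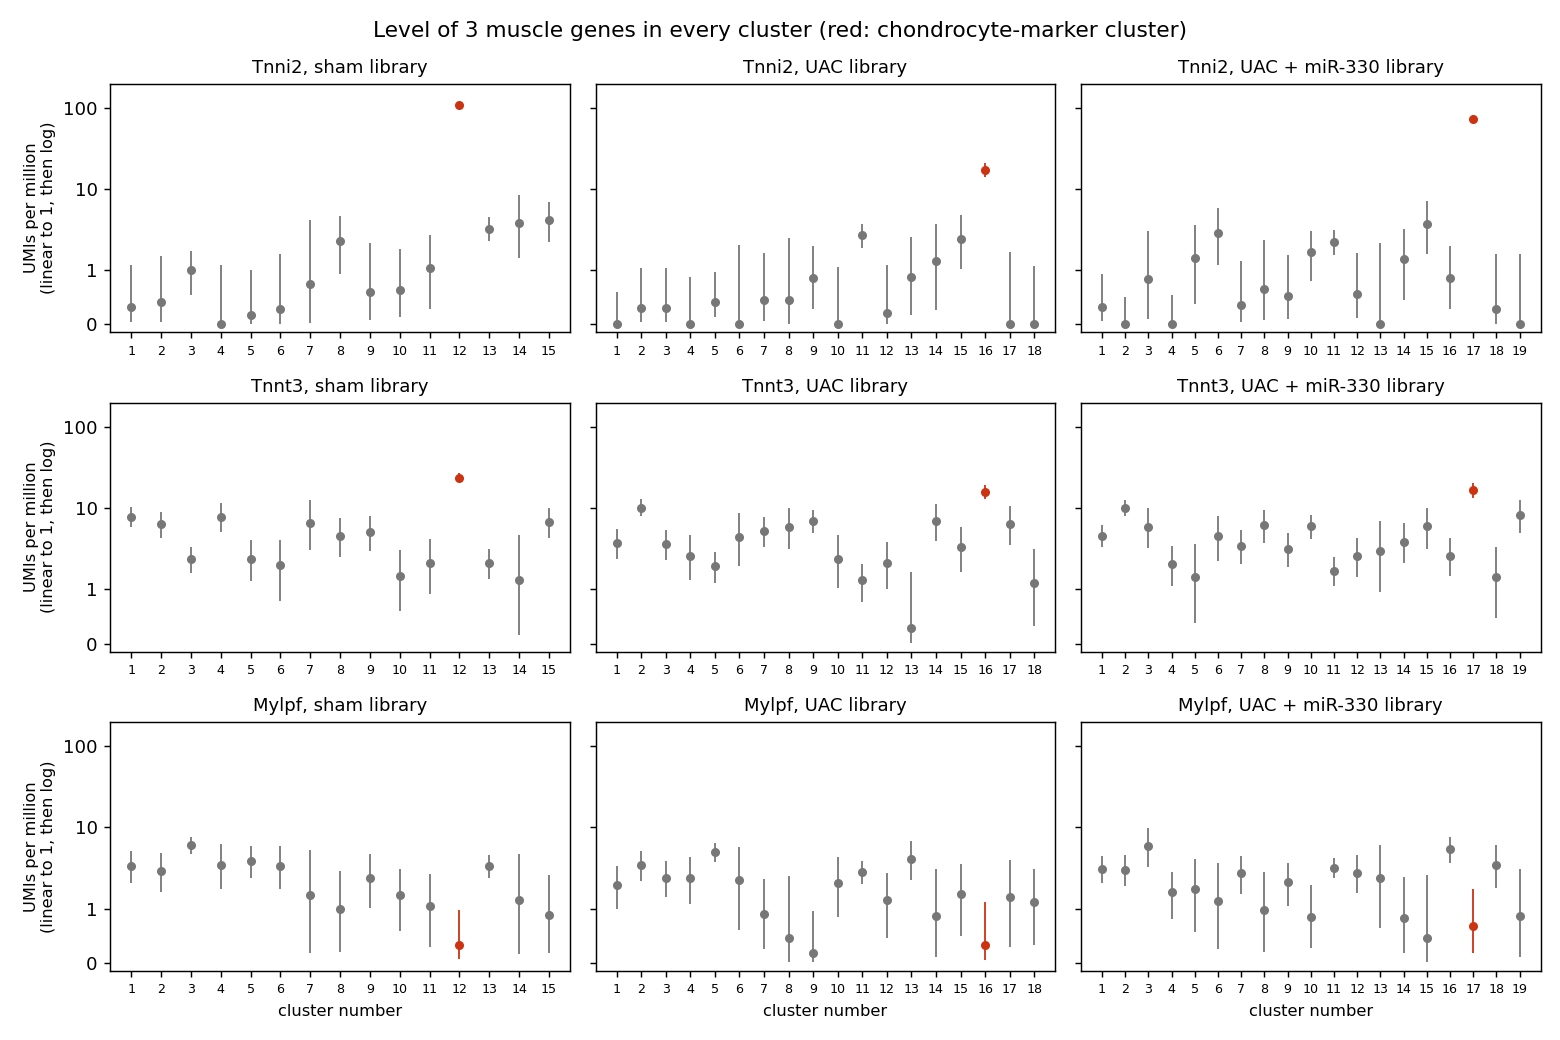
Level of Tnni2, Tnnt3 and Mylpf in every cluster of the 3 libraries, in CPM, on an axis that is linear up to 1 and logarithmic above. Points are levels, bars exact Poisson 95% intervals, and red marks the chondrocyte-marker cluster. Tnni2 and Tnnt3 are highest in the red cluster of each library, and Mylpf ranks 15 of 15, 17 of 18 and 18 of 19 there. Cluster numbers do not correspond between libraries.

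The makeup of the chondrocyte-marker cluster also differed between the libraries. Of 8 endothelial markers 7 were listed, with a sum of 52.2, 7.52 and 7.82 CPM in the sham, UAC and miR-330 libraries. Emcn had the most UMIs in the sham library, 158, and Egfl7 in the other libraries with 36 and 37. The defining markers Cdh5, Kdr, Tek and Emcn had 60, 45, 41 and 158 UMIs in the sham cluster and 0 in both other clusters. Of the 7 genes 5 were called lower from sham to UAC. Over all genes 0.554% were. Over all clusters Cdh5 had 60, 7 and 54 UMIs and Emcn 168, 51 and 121, lowest in the UAC library, and Kdr had 85, 130 and 176 and Tek 66, 50 and 120. The part of endothelial cells in the level of Tnni2 was not tested. The 8 neutrophil markers, led by S100a9 in the sham and UAC libraries and by S100a8 in the miR-330 library, summed to 1232, 4321 and 843 CPM, with 5 of 6 called higher in the first step and 6 of 6 lower in the second, against 3.19% and 2.83% of all genes. Their sum was highest in the UAC library, where Tnni2 was lowest, while Retnlg was highest in the sham library, at 45.5, 36.8 and 6.8 CPM. Csf3r had 11, 8 and 1 UMIs and Ltf 0, 1 and 0. Without neutrophil, mitochondrial, ribosomal protein and haemoglobin genes in the scaling, the log2 ratios of Tnni2 were -2.65 and 2.07. Whether the makeup of the cluster had a part in the ratios of Tnni2 was not tested.

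Genes of cartilage zones moved in several ways. Among 10 hypertrophic genes, Ihh, a signal of prehypertrophic chondrocytes, was at 127, 57.5 and 99.7 CPM and was called lower from sham to UAC, at a log2 ratio of -1.14 (-1.32 to -0.97). The call of Ihh is lost on the deposited mean counts, at -0.94, and when scaled to the chondrocyte markers, at -0.81. Pth1r, the receptor in the same circuit, was at 755, 501 and 794 CPM, and Alpl, the mineralising phosphatase, at 1015, 591 and 940. Panx3, a channel protein, was at 787, 603 and 806 CPM, Ibsp, a bone matrix protein, at 778, 678 and 1357, and Col10a1, the collagen of the hypertrophic zone, at 279, 232 and 699. Vegfa, a vessel growth factor, was at 82, 79.8 and 98.4 CPM, with overlapping sham and UAC intervals. These 7 of the 10 genes had their lowest CPM in the UAC library, as Tnni2 had, at smaller ratios. The tally, which ignores counting error, is set against 18.6% of 11216 genes. Scaled to the chondrocyte markers it was 4 of the 10, against 2.81% of all genes, and with Ihh and Pth1r as the scale 1 of the 10, against 0.767%. The collagenase Mmp13, at 140, 411 and 251 CPM, and the matrix protein Spp1, at 1542, 2573 and 1914, were highest there, and the transcription factor Runx2, at 435, 517 and 839, was lowest in the sham library. Of the 10 genes Ihh was called lower and Mmp13 higher from sham to UAC, and Col10a1 and Ibsp higher and 0 lower from UAC to miR-330. Over all genes 0.554% were called lower and 3.19% higher in the first step, and 2.83% and 1.84% in the second. Spp1 is called higher in the first step when scaled to the chondrocyte markers, at 1.07, and Ihh in the second on the deposited mean counts, at 1.03. The call of Col10a1 is lost with Ihh and Pth1r as the scale, at 0.91. Ibsp, at a log2 ratio of 1.00, is not called when scaled to the chondrocyte markers, at 0.63, and Mmp13 is then called lower, at -1.08, as it is under both scalings chosen after seeing the data. The list summed to 5941, 6244 and 7798 CPM. With the UMIs of Ihh and Pth1r as the scale, chosen after seeing the data, the log2 ratios of Tnni2 were -2.00 and 1.42. Of 8 superficial zone genes Prg4, the lubricin of the joint surface, was at 0.665, 3.85 and 72.9 CPM, called higher in both steps, and the transcription factor Erg was at 13.9, 8.03 and 12.9. The cluster held only 5.56%, 6.73% and 57.7% of the Prg4 UMIs of the libraries, and 3.95%, 1.27% and 1.63% of those of Erg. The list summed to 158, 194 and 268 CPM, and to 157, 190 and 195 without Prg4. Of 7 genes 2 were called higher in the first step and 1 in the second, against 3.19% and 1.84% of all genes. The part of both lists in the result was not tested.

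Of the 15 chondrocyte markers 0 were called in the step from sham to UAC, with a median log2 ratio of -0.15. Over all genes 3.19% were called higher and 0.554% lower, with a median of 0.15. From UAC to miR-330 2 of the markers were called higher, Matn3 and Col9a3, with a median of 0.48, against 1.84% and 0.01 over all genes. Neither is called when scaled to the chondrocyte markers themselves. Scaled to the UMIs of 14 of these markers, Tnni2 had log2 ratios of -2.32 and 1.73. Osteoblast genes, summing to 67143, 57083 and 56707 CPM, had 2 of 8 called higher and then 1 of 8 higher, against 3.19% and 1.84% of all genes. Dmp1, of osteocytes, was called lower in the second step when scaled to the chondrocyte markers, at -1.27, as under both scalings chosen after seeing the data. Fibroblast and tendon genes, led by Col3a1, summed to 7940, 7775 and 6151 CPM, with 0 of 9 called and then 1 of 10 higher. Over all genes 3.19% were called higher and 0.554% lower in the first step, and 1.84% and 2.83% in the second. Scaled to the chondrocyte markers, Pdgfra and Fbln1 were called higher in the first step, at 1.07 and 1.3, and Scx lower in the second, at -1.19. On the deposited mean counts Fbln1 was called higher in the first step, at 1.16. Erythroid and macrophage markers summed to at most 6.76 and 19.7 CPM in these clusters, and B cell markers to 347, 339 and 236, led by Ebf1. Nerve and Schwann cell markers summed to 605, 462 and 589 CPM, nearly all S100b, which chondrocytes also express, and Mbp was called higher and then lower. The first call is lost when scaled to the hypertrophic list, at 1.10, and the second on the deposited mean counts, at -1.28. The part of these lists in the result was not tested.

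Since fast troponin I is known to inhibit vessel growth, 8 other cartilage genes with that property were compared. Chondromodulin (Cnmd) was at 152, 164 and 273 CPM in the sham, UAC and miR-330 libraries, Thbs1 at 19.7, 24.1 and 111, and Timp3 at 108, 167 and 253, each lowest in the sham library. For Cnmd and Thbs1 the sham and UAC intervals overlapped. Sparc, with the most UMIs of the list, was at 36634, 28315 and 29757 CPM. From sham to UAC 0 of 8 were called higher and 1 lower, against 3.19% and 0.554% of all genes. The gene called was Col18a1, the source of endostatin, with 65, 7 and 4 UMIs. From UAC to miR-330 1 of 7 was called higher, Thbs1, and 0 lower, against 1.84% and 2.83% of all genes. Scaled to the chondrocyte markers Serpinf1 was called lower in this step, at -1.04. Sparc had the order of Tnni2 among the libraries on CPM, at a log2 ratio of 0.07 in the second step. The scaling to the chondrocyte markers shifts that ratio by -0.37, which turns it. The scaling without neutrophil, mitochondrial, ribosomal protein and haemoglobin genes shifts it by -0.03 only. Timp1 was at 602, 577 and 447 CPM, Serpinf1 at 740, 995 and 623 and Timp2 at 358, 383 and 359.

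The 5 genes nearest to Tnni2 in the pair of log2 ratios, by Euclidean distance among 9406 genes with at least 100 UMIs, were Dgkb, Il17b, Ninj2, Spon1 and Foxa2, at distances of 1.02, 1.26, 1.3, 1.76 and 1.83. Dgkb, a diacylglycerol kinase, had 58, 12 and 55 UMIs, and Il17b, a cytokine of the interleukin 17 family, had 175, 37 and 94. The transcription factor Foxa2 had 209, 66 and 149 UMIs. All 5 had their lowest CPM in the UAC library, at log2 ratios to sham from -1.63 to -0.91. Il17b and Foxa2 had over 92% of their UMIs in the chondrocyte-marker cluster of each library, whereas Spon1 had 0.928%, 0.303% and 0.912%. Over the 52 clusters of the 3 libraries, the highest Pearson correlations with Tnni2 of log2 CPM were those of Trim47, Wnk4, Pla2g5, Il17b and Ano1, from 0.900 down to 0.886. Clusters of a library share its cells and depth, so these values are a description. Only Il17b was on both lists. The genes were found from the values of Tnni2 itself, so they say nothing on whether it moves alone.

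Tnni2 and Tnnt3 lie close together on the chromosome. In the RefSeq annotation of assembly GRCr8, used for names and neighbours, the protein-coding genes from Tnni2 to Tnnt3 and just beyond, in order of their ends, are Ifitm10, Ctsd, Syt8, Tnni2, Lsp1, Prr33, Tnnt3 and Mrpl23. The gene model of Tnni2 overlaps those of Ifitm10, Ctsd and Syt8, and how UMIs of overlapping genes were assigned is not given in the sources used here, so the counts of these 4 genes are uncertain to that extent. Syt8, a synaptotagmin, had 55, 39 and 59 UMIs in the chondrocyte-marker clusters, which was 94.8%, 100% and 96.7% of its UMIs. Its level was 6.10 (4.59 to 7.94), 6.52 (4.64 to 8.92) and 10.0 (7.63 to 12.9) CPM. The intervals overlapped, so whether sham or UAC was lower is not resolved. Ctsd, the protease cathepsin D, was at 144, 164 and 127 CPM and Ifitm10 at 6.43, 6.52 and 5.44. Lsp1, a leukocyte actin-binding protein, was at 119, 103 and 116 CPM and Mrpl23, of the mitochondrial ribosome, at 154, 141 and 128. Prr33 was not listed. None of the neighbours with UMIs was called in either step, and the largest of their log2 ratios was 0.61 (0.01 to 1.24), for Syt8 from UAC to miR-330.

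The promoter of Tnni2 is shown because the E-box is the motif of the myogenic factors, of which Myog and Myf6 had 0 UMIs in the chondrocyte-marker clusters and Myod1 and Myf5 were not listed. RefSeq gives it for GRCr8 at chr1:207024240-207024539 on the + strand, 250 bases before to 50 after the start, and 5 of the 7 genes matched the promoter table. The motif CANNTG, the E-box, reads the same on both strands and is in capitals.
Tnni2 promoter: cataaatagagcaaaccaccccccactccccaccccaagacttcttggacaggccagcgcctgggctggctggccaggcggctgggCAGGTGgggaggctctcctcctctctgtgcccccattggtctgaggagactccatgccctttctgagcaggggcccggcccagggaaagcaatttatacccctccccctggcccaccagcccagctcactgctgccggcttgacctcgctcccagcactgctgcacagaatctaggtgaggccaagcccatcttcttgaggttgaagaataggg
It has 1 match, and 71.6% of 27457 promoters of the same length have at least 1. The MEF2 motif, searched on both strands, had 0 matches and is found in 3.37% of promoters. The muscle motif CATTCC, also searched on both strands, had 0 matches and is found in 13.9%. These are counts of letters and say nothing about binding.

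The microRNA delivered in the miR-330 group has 2 mature arms in RefSeq, shown because they define the treatment, with the seed, bases 2 to 8, in capitals. The seeds of the arms differ.
rno-miR-330-5p: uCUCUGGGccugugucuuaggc
rno-miR-330-3p: gCAAAGCAcagggccugcagaga
Sites for these seeds in Tnni2 were not searched, and the microRNA gene itself was not listed in the tables.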

How the data were processed

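The authors ran 10x Genomics 3′ single-cell sequencing and deposited 1 table per library in the layout of a graph-based clustering, with each cluster's mean counts, log2 fold changes against other clusters and adjusted p-values. What the authors deposited as mean counts is a normalized signal: within each cluster, UMIs over a constant. The authors' log2 fold changes and p-values were not used. The submitters' processing notes list Cell Ranger 7.0, STAR and Seurat 4.0.1, and the builds GRCh38 and mm10 without a role; identifiers are rat Ensembl genes and the build of the tables is not given in the sources used here. Each library was clustered alone, and cells, barcodes and doublets cannot be examined from cluster sums.

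UMIs were recovered by dividing each mean by the smallest positive mean of its column; 100% of values came out whole within 1e-06. Names on several identifiers (101, 106 and 116) had their UMIs added. A gene unlisted in 1 table but listed in another was taken as 0 UMIs. Levels, exact intervals (95%) and calls (at least 20 UMIs, 0.5 UMI added, 2-fold) were computed with Python 3.11.15, numpy 2.4.6, pandas 2.3.3 and SciPy 1.17.1, and figures with matplotlib 3.10.9. For 0 UMIs the text prints a limit of 3 counts, and the bars of the figures end at the exact Poisson upper bound, which is wider. The calling step was tested only on Poisson counts simulated from the sham cluster at equal depth. Such counts hold no differences between libraries, so the rate of false calls between these libraries is not known from them. Cluster 12, 16 and 17 follow from the rule for the set. CPM of 3′ UMIs are not divided by gene length. Expression is compared for a gene between libraries or clusters, not between genes. The ratio of Tnni2 to Col2a1 UMIs is compared only with itself between places. A list's leading gene is the one with the most UMIs.

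Named genes were the 7 genes, the other troponins, muscle list members with at least 20 UMIs in the 3 chondrocyte-marker clusters, the 5 nearest genes by each measure and the neighbours of Tnni2; others are named where absent or few. The rule also took such members of the lists of other cell types, of which only some are printed, picked after their values were seen. For the correlation 1 CPM was added before log2. The genes and lists were chosen with earlier results of these data known. Alternatives were other scalings, added UMIs, filters, all clusters together and single identifiers.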

Additional observations from a re-analysis of the deposited data

How the results depend on the processing

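No paired analysis was possible because each condition has 1 library. The log2 ratio of Tnni2 kept its sign under all 9 alternatives of each step, from -2.90 to -2.00 for UAC to sham and from 1.42 to 2.33 for miR-330 to UAC. It left its counting interval in these cases. Scaled to the chondrocyte markers it was -2.32 and 1.73, and scaled to Ihh and Pth1r, chosen after seeing the data, -2.00 and 1.42. For miR-330 to UAC it was 1.53 over all clusters and 1.78 scaled to the hypertrophic list, also chosen after seeing the data. Each scaling moves all genes alike, the deposited mean counts by 0.20 and 0.24, the chondrocyte markers by 0.33 and -0.37, the hypertrophic list by -0.07 and -0.32, and Ihh with Pth1r by 0.66 and -0.68. Over the same 9 alternatives the ratio of Tnnt3 ran from -0.65 to 0.08 for UAC to sham and from -0.61 to 0.30 for miR-330 to UAC. Both 0.08 and -0.61 came from the scaling to Ihh and Pth1r, which moves every gene alike. The first ratio was negative under every other alternative, so its direction turns only with that scale. The second was -0.3 scaled to the chondrocyte markers and 0.30 on the deposited mean counts, so it has no firm direction.

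With at least 100 UMIs, 0.209% of genes were lower and 2.08% higher from sham to UAC. On the deposited mean counts 5.13% were higher from sham to UAC, and in the other step 1.64% were lower and 4.10% higher. Over all these settings 12 values moved, 39 stayed and 1, the ratio of Tnnt3 for UAC to sham, turned; the cause was not tested. Of the 5 genes nearest by distance, 2 remained with at least 50 UMIs and 4 with 5 UMIs added, and by correlation 5 remained in both. Ratios of the 5 genes of the set under 20 UMIs were not computed. Calls of single list genes under the other scalings were added after seeing the data.

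Counting intervals leave out differences between rats, dissociations and libraries. Cells per cluster are unknown, so UMIs of few cells cannot be told from UMIs of many. Genes at or under 3 UMIs limit what can be said of the rest of the fast troponin complex.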

Other observations

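Of 10 smooth muscle and pericyte genes, 5 had at least 20 UMIs in the chondrocyte-marker clusters together. On CPM 1 of these was called higher and 0 lower from sham to UAC, and 0 were called in the next step. Over all genes 3.19% were called higher and 0.554% lower in the first step, and 1.84% and 2.83% in the next. Scaled to the chondrocyte markers Tagln was called lower in the next step, at -1.25, as under both scalings chosen after seeing the data, and Myh11 was called lower with Ihh and Pth1r as the scale, at -2.00. Tagln (transgelin) was at 15.3, 41.1 and 22.3 CPM in the sham, UAC and miR-330 libraries, highest in the UAC library, where Tnni2 was lowest, with a log2 ratio of 1.42 (1.12 to 1.74) from sham to UAC. Smtn (smoothelin) lay at 36.1, 39.6 and 38.1 CPM. Myocd, a cofactor of smooth muscle transcription, was at 5.32, 5.85 and 9.18, with over 96% of its UMIs in these clusters, Acta2 was at 2.99, 3.34 and 2.55, and Myh11, a myosin heavy chain, at 1.33, 2.68 and 1.02. Of the cardiac list, Pln and Myl4 were at or below 2.21 CPM in each library.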
